A study of Homo sapiens with 18 samples.

Results

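The genes described here are 10 regulators and markers of mesenchyme, the loosely packed, migratory connective tissue of the embryo. They were taken by symbol from the 26485 gene rows of 18 count files, and all 10 symbols were present. TWIST1, TWIST2, PRRX1, PRRX2, FOXC1 and FOXC2 encode transcription factors, PDGFRA and PDGFRB encode receptors, and LUM and DCN encode matrix proteoglycans. Of the 10, 6 passed the filter on low counts and entered the test across genes (TWIST1, TWIST2, PRRX1, PRRX2, PDGFRB and FOXC1). PDGFRA, LUM and DCN had too few counts, and FOXC2 had none.

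WIBR3, an established line of human embryonic stem cells (hESC), and cortical organoids grown from it gave the samples. They form 6 groups of 3 libraries, made of LIS1+/- and LIS1+/+ cells at 3 stages: undifferentiated hESC, organoids of Day 5 and organoids of Day 12. LIS1, with the gene symbol PAFAH1B1, encodes a regulator of the motor protein dynein. Bulk MARS-seq, the method used, counts sequence tags from the 3′ end of transcripts. No further treatment is named in the labels, and neither the making of the LIS1 allele nor the number of clones that carry it is stated there, so an effect of genotype and one of a clone cannot be told apart. Nothing in the labels says that the 3 libraries of a group came from different cultures. The p-values therefore describe the spread of these libraries, which may be technical.

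Mesenchyme of the head arises from neural crest, cells that leave the border of the neural plate, and from mesoderm, whereas cortical organoids are directed towards neuroectoderm. TWIST proteins are basic helix-loop-helix factors that pair with E proteins and bind E-boxes, and they promote the passage of epithelial cells to a mesenchymal state. PRRX and FOXC factors act in limb, facial and paraxial mesenchyme, PDGF receptors pass on growth and migration signals in mesenchymal and mural cells, and lumican and decorin bind collagen fibrils.

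Each library held between 1425098 and 4501489 counts over genes. Levels are given in CPM, the count of a gene over the library's counts in tested genes after TMM scaling, and because tags come from transcript ends no level is compared between genes. PAFAH1B1 stood at 51.4 to 61.2 CPM in LIS1+/- hESC against 72.1 to 111 CPM in LIS1+/+ hESC, at 84.3 to 105 CPM against 130 to 152 CPM at Day 5, and at 76.1 to 114 CPM against 140 to 218 CPM at Day 12, with the genotypes fully separate at each stage. File names carry a different pool number at each stage, so stage and pool cannot be told apart. An earlier report on these files set 3 libraries apart by a trend with GC content, namely replicate 3 of LIS1+/+ hESC, replicate 2 of LIS1+/- at Day 5 and replicate 2 of LIS1+/+ at Day 12.

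On GRCh38 with GENCODE 29, TWIST1 lies on the minus strand (chr7:19020991-19117672) and TWIST2 on the plus strand (chr2:238848032-238910543). PRRX1 (chr1:170662728-170739419), PRRX2 (chr9:129665641-129722674), PDGFRA (chr4:54229097-54298247), FOXC1 (chr6:1609972-1613897) and FOXC2 (chr16:86566829-86569728) lie on the plus strand, and PDGFRB (chr5:150113837-150155872) on the minus strand. LUM (chr12:91102629-91111831) and DCN (chr12:91140484-91183123) are neighbours on the minus strand, 28652 bases apart. Antisense genes overlap TWIST1 (AC003986.2), PRRX2 (PRRX2-AS1) and FOXC2 (FOXC2-AS1), and the files do not say whether counting used the strand, so counts of these genes could include antisense tags. PDGFRA overlaps AC058822.1 and PRRX1 overlaps Z97200.1 on the same strand, and the treatment of such tags is not stated. The longest run shared by the last 1000 bases of transcripts of a pair was 23 bases for TWIST1 and TWIST2, 20 bases for PRRX1 and PRRX2 and 11 bases for PDGFRA and PDGFRB.

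Promoter sequences from RefSeq (GRCh38.p14, 250 bases before to 50 bases after a start site) were found for 6 members: TWIST2, PRRX1, PRRX2, PDGFRA, PDGFRB and FOXC1. Those of PRRX1 (chr1:170663881-170664180, plus strand), PRRX2 (chr9:129665397-129665696, plus strand) and PDGFRB (chr5:150155796-150156095, minus strand) are shown, because the paired-related homeobox genes were both called lower at Day 12 and the receptor gene was not. Capitals mark each CANNTG, the E-box core that TWIST-type factors bind, and each CCAAT, searched on both strands.
PRRX1: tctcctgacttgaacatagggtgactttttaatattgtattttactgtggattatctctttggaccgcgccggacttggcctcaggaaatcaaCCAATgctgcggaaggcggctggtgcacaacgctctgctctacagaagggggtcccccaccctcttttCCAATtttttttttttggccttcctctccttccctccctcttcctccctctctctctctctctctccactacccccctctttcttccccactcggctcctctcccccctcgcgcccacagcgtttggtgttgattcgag
PRRX2: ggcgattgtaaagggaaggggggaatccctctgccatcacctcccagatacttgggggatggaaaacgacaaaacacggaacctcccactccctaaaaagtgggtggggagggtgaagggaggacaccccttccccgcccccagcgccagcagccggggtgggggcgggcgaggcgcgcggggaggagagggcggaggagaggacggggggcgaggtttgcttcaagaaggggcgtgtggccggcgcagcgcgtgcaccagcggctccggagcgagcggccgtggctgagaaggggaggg
PDGFRB: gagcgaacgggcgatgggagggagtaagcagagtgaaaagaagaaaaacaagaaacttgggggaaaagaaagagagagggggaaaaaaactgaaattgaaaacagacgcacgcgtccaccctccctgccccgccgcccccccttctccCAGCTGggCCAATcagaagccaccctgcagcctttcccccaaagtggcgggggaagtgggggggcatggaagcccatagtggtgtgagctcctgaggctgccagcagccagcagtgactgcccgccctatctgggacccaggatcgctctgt
The PRRX1 window held CCAAT 2 times and no CANNTG, and its GC content was 53.0%. The PRRX2 window held neither motif and had a GC content of 68.3%, against a median of 58.7% over all RefSeq promoters of that length. In the PDGFRB window 1 CANNTG, of the form CAGCTG, stood beside 1 CCAAT without overlapping it. Of the windows not shown, those of TWIST2 and FOXC1, tested and not called at Day 12, also held no CANNTG. The PDGFRA windows held 2 and 1. TWIST1, also called at Day 12, had no promoter entry. These few windows cannot tell whether CANNTG sets called members apart from the others. CANNTG occurs in 68.7% of the 35114 promoters, CAGCTG in 17.9% and CCAAT in 34.6%, and a match describes letters in the window only.

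At Day 12, 3 members were lower in LIS1+/- organoids: TWIST1, PRRX1 and PRRX2. Across all 12215 tested genes 1.40% were called between the genotypes at Day 12 and 1.06% were called lower, against 3 of the 6 tested members, or 3 of the 10 in all. None was called higher. The same 3 tested members were those with no overlap between genotypes, a separation that 8.43% of tested genes showed in that direction. The median log2 fold change of the tested members was -2.52, against -0.01 over all tested genes. PRRX1, with 99 of its 136 counts in Day 12 LIS1+/+ organoids, passed the filter through that group. So did FOXC1, with 52 of 106 counts there, and in part TWIST2, with 37 of 111. The share of tested members called lower in LIS1+/- and their median therefore partly follow from the filter. In bulk RNA, fewer cells of a type and less RNA per cell cannot be told apart.

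TWIST1, a basic helix-loop-helix factor of cranial mesenchyme and neural crest derivatives, stood at 4.95, 2.28 and 3.42 CPM in the LIS1+/- organoids of Day 12, against 200, 17.0 and 68.1 CPM in the LIS1+/+ organoids. The groups did not overlap, although the LIS1+/+ libraries themselves lay 11.8-fold apart and the lowest of them, replicate 2, was 3.43 times the highest LIS1+/- library. TWIST1 differed by -4.82 ± 0.67 in log2 fold change (SE, 3 libraries each, edgeR quasi-likelihood adjusted p = 0.00104). Without LIS1+/+ replicate 1, the highest library, it was -3.69. Fitted on Day 12 libraries only, the value was again -4.82 but the call was lost (adjusted p = 0.199).

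TWIST2, its close relative, was measured at 1.24, 1.99 and 1.14 CPM in LIS1+/- organoids and at 15.5, 1.89 and 4.87 CPM in LIS1+/+ organoids of Day 12. LIS1+/+ replicate 2 fell within the LIS1+/- range, and the log2 fold change of -2.26 ± 0.70 was not called by edgeR (adjusted p = 0.12). Without that library it was -2.70 and was called (adjusted p = 0.0308), also when the 3 libraries set apart were all left out (adjusted p = 0.0225). Without LIS1+/+ replicate 1 it was -1.20 (adjusted p = 0.609).

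PRRX1, a homeobox factor of limb bud and craniofacial mesenchyme, had 3.71, 1.14 and 0.57 CPM in LIS1+/- organoids at Day 12 and 37.5, 6.92 and 14.6 CPM in LIS1+/+ organoids. All LIS1+/- libraries lay below all LIS1+/+ libraries, and the group means were 1.81 ± 1.67 and 19.7 ± 15.9 CPM (SD, n = 3 each). The log2 fold change was -3.66 ± 0.72 (edgeR adjusted p = 0.00642). Without LIS1+/- replicate 1 it was -4.44. The call was lost without LIS1+/+ replicate 1 (-2.82, adjusted p = 0.0884), without LIS1+/- replicate 2 (-3.44, adjusted p = 0.0641) or 3 (-3.17, adjusted p = 0.0797), and among Day 12 libraries alone (adjusted p = 0.0569).

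PRRX2, the second paired-related homeobox gene, was measured at 13.6, 6.54 and 9.40 CPM in LIS1+/- organoids against 118, 24.5 and 53.0 CPM in LIS1+/+ organoids at Day 12, again with no overlap. Its log2 fold change was -2.78 ± 0.53 (edgeR adjusted p = 0.0101), and -2.06 without LIS1+/+ replicate 1. The call was lost without LIS1+/- replicate 2 (-2.54, adjusted p = 0.0713) or 3 (-2.79, adjusted p = 0.0757), and among Day 12 libraries alone (adjusted p = 0.0734).

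FOXC1, a forkhead factor of periocular, meningeal and somitic mesenchyme, was measured at 2.47, 5.41 and 3.42 CPM in LIS1+/- organoids and 17.4, 10.1 and 4.38 CPM in LIS1+/+ organoids of Day 12. LIS1+/+ replicate 3 lay inside the LIS1+/- range, and the difference was not called (log2 fold change -1.41 ± 0.69, edgeR adjusted p = 0.394). FOXC2, its relative in paraxial mesoderm and lymphatic vessels, had 0 of 47416238 counts over the 18 libraries, which allows a level of up to 0.0632 CPM from counting error alone.

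PDGFRA, the receptor of early mesenchyme, was measured at 0, 0.854 and 1.14 CPM in LIS1+/- organoids and at 15.5, 3.15 and 2.92 CPM in LIS1+/+ organoids of Day 12. These groups did not overlap but rest on 7 and 35 counts in all, below the filter. In a fit of 18822 genes with no filter beyond 1 count, PDGFRA was lower in LIS1+/- with a log2 fold change of -3.08 ± 0.83 (edgeR adjusted p = 0.0128). That fit called 483 of its genes between the genotypes at Day 12, and no library was left out of it. Its adjusted p can lie far below that of the filtered fit, as for TWIST1 in hESC (5.59e-08 against 0.212 by edgeR). LIS1+/+ replicate 1 held 24 of the 35 PDGFRA counts.

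PDGFRB, the receptor of pericytes and other mural cells, stood at 16.1, 8.82 and 7.12 CPM in LIS1+/- organoids against 26.5, 11.3 and 19.5 CPM in LIS1+/+ organoids. The groups overlapped, and the log2 fold change of -0.90 ± 0.39 was not called by edgeR (adjusted p = 0.323). Among the tested members this was the smallest difference between the genotypes at Day 12.

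LUM, encoding lumican, a keratan sulfate proteoglycan, was measured at 0, 0 and 0.285 CPM in LIS1+/- organoids and 3.88, 0 and 6.33 CPM in LIS1+/+ organoids, a single count against 19 counts. The ratio of LIS1+/+ over LIS1+/- was 31.6, with a 95% counting interval of 5.03 to 1310. DCN, encoding decorin, was measured at 1.24, 0 and 1.14 CPM in LIS1+/- organoids and 15.5, 0.629 and 5.35 CPM in LIS1+/+ organoids, on 6 and 36 counts. For both proteoglycan genes LIS1+/+ replicate 2 lay within the LIS1+/- range, and neither was called without the filter (edgeR adjusted p = 0.0969 for LUM and 0.0857 for DCN).

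**Figure D1:**
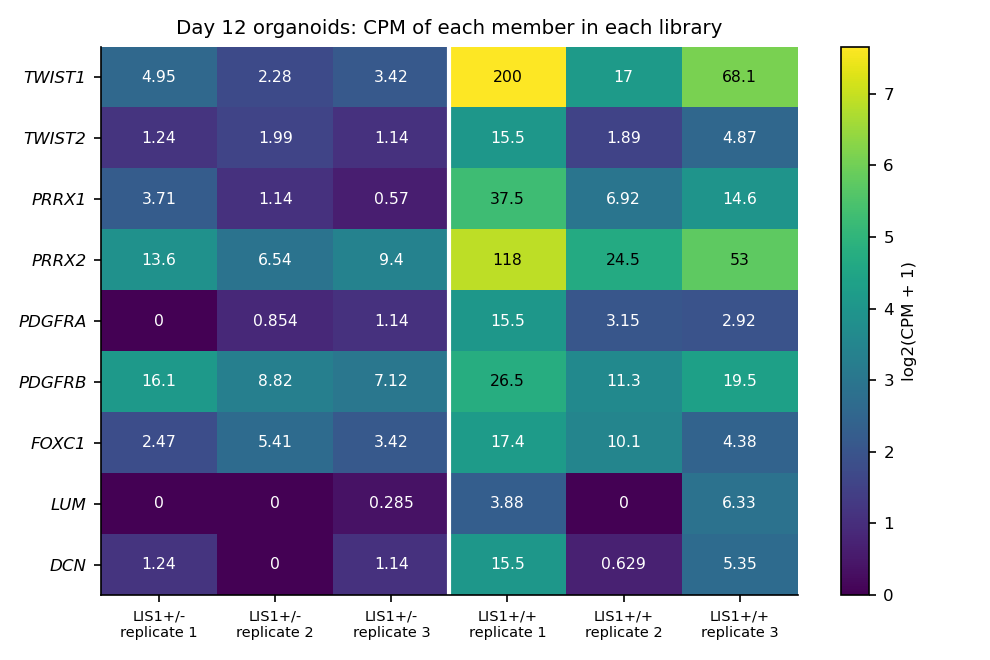
Heat map of the 9 members with a count in the 6 Day 12 libraries, LIS1+/- left of LIS1+/+; the number in each cell is the CPM, colour is log2(CPM + 1). LIS1+/+ replicate 1 is brightest in 8 of the 9 rows and LIS1+/+ replicate 2 is the dimmest LIS1+/+ library in 7 of them.

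The size of these differences depended on which LIS1+/+ library was compared, as the heat map of Day 12 CPM shows. LIS1+/+ replicate 1 was the highest of its group for 8 of the 9 members with a count, and replicate 2 the lowest for 7. Summed over the 10 members, the level was 43.3, 27.0 and 27.6 CPM in the LIS1+/- organoids and 449, 75.5 and 179 CPM in the LIS1+/+ organoids. Every member that passed the filter varied more among Day 12 LIS1+/+ libraries than the median tested gene, with a median SD of 1.16 on the log2 scale against 0.38 over all tested genes. In Day 12 LIS1+/- organoids that median SD was 0.54, against 0.25 over all tested genes. It was above that of all tested genes in the other groups too, as in Day 5 LIS1+/- organoids (0.88 against 0.34) and LIS1+/+ hESC (0.58 against 0.31). The members were not matched for level with the other genes.

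Other mesenchymal transcription factors were counted from a list of 20 genes, of which 13 were tested. At Day 12, 2 of them were called lower in LIS1+/- and none higher: SNAI1 and SNAI2, zinc finger repressors that act in epithelial to mesenchymal transition and crest delamination. The list's median log2 fold change was -1.18. SNAI1 stood at 6.18, 4.55 and 5.98 CPM in LIS1+/- organoids and 71.7, 9.44 and 20.9 CPM in LIS1+/+ organoids (log2 fold change -2.61 ± 0.52, edgeR adjusted p = 0.00994), and SNAI2 averaged 3.42 ± 0.288 and 16.7 ± 15.2 CPM (-2.27 ± 0.55, adjusted p = 0.03). Both calls were lost without LIS1+/+ replicate 1, with values of -1.49 (adjusted p = 0.133) for SNAI1 and -1.22 (adjusted p = 0.43) for SNAI2. They were lost also without LIS1+/- replicate 2 (-2.46 for SNAI1, -2.28 for SNAI2) or 3 (-2.69 and -2.21), and that of SNAI2 without LIS1+/- replicate 1 (-2.31). MSX1, a homeobox factor of crest and limb mesenchyme, was the next by p and was not called (-1.75 ± 0.43, adjusted p = 0.0552).

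Of 16 fibroblast matrix and surface markers 11 were tested, and 4 were called lower in LIS1+/- at Day 12, with a median over the list of -0.71. These were the fibrillar collagen genes COL3A1, COL1A1 and COL1A2 and the matricellular gene POSTN. COL3A1 was measured at 5.56, 2.85 and 3.13 CPM in LIS1+/- organoids and 203, 15.1 and 64.2 CPM in LIS1+/+ organoids (log2 fold change -4.70 ± 0.80, edgeR adjusted p = 0.00642), with the LIS1+/+ libraries in the order seen for TWIST1. Without LIS1+/+ replicate 1 it was -3.48. POSTN had 0 counts in LIS1+/- and 22 in LIS1+/+, at least 12.2-fold lower (adjusted p = 0.026). COL1A1 and COL1A2 differed by -1.62 ± 0.36 and -1.59 ± 0.34 (adjusted p = 0.0179 and 0.0227). Without LIS1+/+ replicate 1 these 2 were no longer called, at -1.09 and -0.87, nor was POSTN (adjusted p = 0.192). Leaving out LIS1+/- replicate 2 or 3 ended all 4 calls, with COL3A1 at -4.52 (adjusted p = 0.0522) and -4.59 (adjusted p = 0.0719), COL1A1 at -1.59 and -1.64 and COL1A2 at -1.51 and -1.55. Leaving out LIS1+/- replicate 1 ended those of COL1A1 (-1.62, adjusted p = 0.0651), COL1A2 (-1.72, adjusted p = 0.0533) and POSTN (adjusted p = 0.0651). POSTN had an adjusted p of 0.109 without LIS1+/- replicate 2 and 0.139 without replicate 3. The summed level of the whole list, which includes the widely expressed VIM, was 6760 to 7690 CPM in LIS1+/- and 6250 to 7240 CPM in LIS1+/+ organoids.

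Among 8 other small leucine-rich proteoglycans, the family of lumican and decorin, BGN (biglycan) alone was tested. It averaged 5.43 ± 1.72 CPM in LIS1+/- and 31.5 ± 19.2 CPM in LIS1+/+ organoids of Day 12 and was called lower (log2 fold change -2.50 ± 0.44, edgeR adjusted p = 0.00238). OGN, ASPN, OMD, EPYC and KERA had no count in either genotype at Day 12. None of the 3 tested PDGF ligand genes, of 4, was called at Day 12, nor any of the 6 tested E protein and ID protein genes, of 7, which encode partners and inhibitors of TWIST-type factors. TCF12, an E protein gene, was closest by p (-0.55 ± 0.23, adjusted p = 0.295), and PDGFC led the ligands (-0.49 ± 0.37, adjusted p = 0.616).

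Some markers of other cell types moved with the members at Day 12, and their part in these differences was not tested. Of 8 neural crest markers, all tested, 4 were called lower in LIS1+/-: SOX10, TFAP2A, FOXD3 and ETS1. SOX10, which marks migrating crest and its glia, was measured at 1.85, 0.569 and 1.42 CPM in LIS1+/- organoids and 87.9, 5.66 and 36.0 CPM in LIS1+/+ organoids (log2 fold change -5.14 ± 0.85, edgeR adjusted p = 0.00369). TFAP2A stood at 1.24, 2.85 and 2.56 CPM against 91.7, 15.1 and 35.5 CPM (-4.29 ± 0.69, adjusted p = 0.0045). Without LIS1+/+ replicate 1 these were -4.12 and -3.41. FOXD3 had no count in LIS1+/- organoids and 69 counts in LIS1+/+ organoids, at least 38.3-fold lower (adjusted p = 0.02), and ETS1 had 1 and 20 counts (adjusted p = 0.0318). These last 2 calls were lost without LIS1+/+ replicate 1 (adjusted p = 0.0616 and 0.217), without LIS1+/- replicate 2 (0.0811 and 0.0843) and without LIS1+/- replicate 3 (0.101 and 0.197), and that of ETS1 also without LIS1+/- replicate 1 (0.0851). The crest list summed to 92.6 to 99.9 CPM in LIS1+/- organoids and 379, 76.1 and 209 CPM in LIS1+/+ replicates 1, 2 and 3.

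Of 8 endoderm and yolk sac markers 4 were tested, and AFP and APOA1, which encode plasma proteins of fetal liver and yolk sac, were called lower in LIS1+/- at Day 12. The list summed to 20.4, 11.7 and 9.69 CPM in LIS1+/- organoids and 482, 23.3 and 81.8 CPM in LIS1+/+ organoids, with the LIS1+/+ libraries in the order of the members' sums, and SOX17, FOXA2 and GATA4 had no count in any LIS1+/- library. The AFP call (log2 fold change -5.84 ± 1.29, edgeR adjusted p = 0.0377) was lost without LIS1+/- replicate 1 (-5.81), 2 (-5.69) or 3 (-6.07), and without LIS1+/+ replicate 1 the value was -2.88. The APOA1 call (-3.51 ± 0.77, adjusted p = 0.029) was lost without LIS1+/- replicate 1 (-3.49), 2 (-3.69) or 3 (-3.38), and without LIS1+/+ replicate 1 (-1.95).

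No marker was called at Day 12 among the mural, endothelial and early mesoderm lists, with 7 of 9, 3 of 8 and 4 of 8 genes tested. Summed levels were 182 to 257 CPM in LIS1+/- and 123 to 228 CPM in LIS1+/+ for mural markers, 11.7 to 18.2 and 6.92 to 33.0 CPM for endothelial markers, and 11.7 to 19.1 and 13.2 to 50.4 CPM for early mesoderm markers. Single genes of the last 2 lists differed in pattern. PECAM1, an endothelial marker, had no count in either genotype. KDR had 0.618, 0.285 and 0.855 CPM in LIS1+/- and 17.4, 0 and 4.87 CPM in LIS1+/+, and HAND1 0, 0.285 and 0 against 24.6, 0.629 and 9.73 CPM. TEK had 3.09, 8.82 and 8.55 CPM against 4.52, 5.03 and 3.41 CPM, and MESP1 6.18, 5.41 and 4.56 against 4.52, 6.29 and 2.92 CPM. Neural progenitor markers summed to 2630 to 3010 CPM in LIS1+/- and 2340, 3380 and 4840 CPM in LIS1+/+ organoids. Of the LIS1+/+ libraries, replicate 1 had the highest sum of the members and the lowest of these markers. Replicate 2, with the lowest sum of the members, did not have the highest of these markers. SOX3 alone of these 7 genes was called (-1.08 ± 0.20, edgeR adjusted p = 0.00342), and LIN28A alone of 7 pluripotency markers (-0.92 ± 0.24, adjusted p = 0.0484). The LIN28A call was lost without LIS1+/+ replicate 1 (-0.65) or 3 (-0.92) and without LIS1+/- replicate 1 (-0.73) or 2 (-0.84). When the Day 12 libraries were fitted by themselves, TFAP2A alone of the genes called in these lists stayed called, while BGN (adjusted p = 0.0569), SOX3 (0.0951) and SOX10 (0.112) came next.

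**Figure D2:**
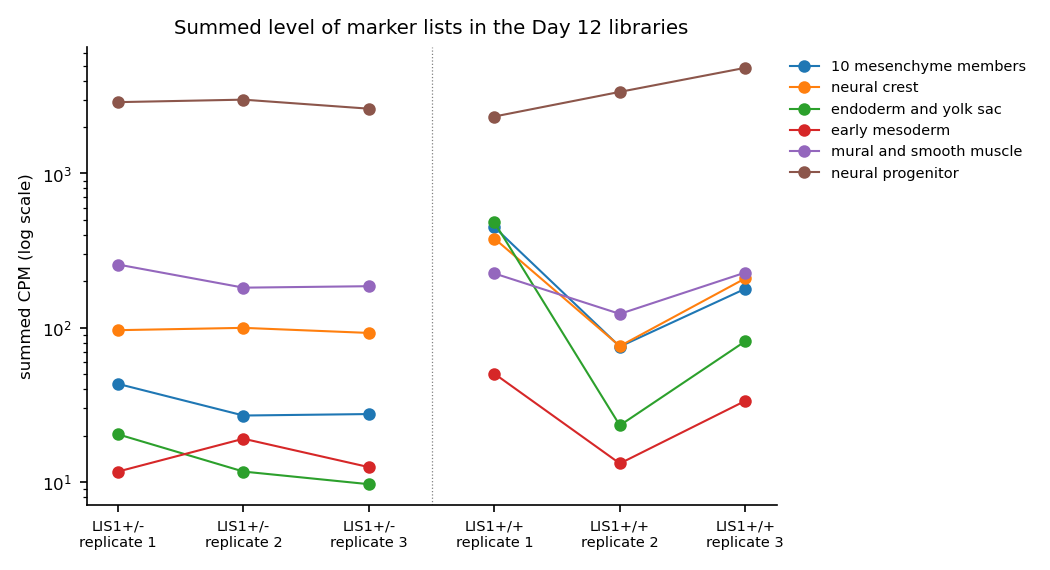
Summed CPM on a log axis of the 10 members and of 5 marker lists in each Day 12 library, LIS1+/- left of LIS1+/+; lines join libraries of a group for reading only. The members, crest and endoderm sums peak in LIS1+/+ replicate 1 (449, 379 and 482 CPM) and dip in LIS1+/+ replicate 2 (75.5, 76.1 and 23.3 CPM), while LIS1+/- sums stay within narrow ranges.

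In undifferentiated hESC the direction for TWIST1 was the opposite. TWIST1 stood at 96.0, 80.7 and 75.4 CPM in LIS1+/- hESC and 22.4, 28.1 and 24.2 CPM in LIS1+/+ hESC. Every LIS1+/- library lay above every LIS1+/+ library, as 10.6% of tested genes did, with a log2 fold change of 1.76 ± 0.54, but the gene did not pass over all tested genes in the fit of all 18 libraries (edgeR adjusted p = 0.212, unadjusted p = 0.00485). It passed when hESC libraries were fitted by themselves (1.74, adjusted p = 1.16e-05), without the filter (1.77, adjusted p = 5.59e-08) and without the 3 libraries set apart by GC trend (1.74, adjusted p = 0.0119), and missed in the other 9 of 12 alternative fits (adjusted p up to 0.496). In LIS1+/- hESC every file name ends in the same replicate number, 1, whereas each other group runs from 1 to 3, and whether these libraries are repeats of 1 sample is not stated. Pairs of them differed by more than sampling noise, with a mean chi-square of 4.09 to 5.54 per gene, against 3.40 to 6.52 in LIS1+/+ hESC. Collapsing of molecular identifiers is not given, so these values cannot tell repeats of 1 sample from separate cultures. No member was called in hESC by edgeR in the fit of 18 libraries, where 0.491% of all tested genes were called. At an unadjusted p under 0.05 there was 1 member, and DESeq2 called none.

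The other members did not separate in hESC. TWIST2 averaged 3.76 ± 1.11 CPM in LIS1+/- and 2.19 ± 1.06 CPM in LIS1+/+ hESC, PDGFRB 11.1 ± 2.67 and 7.15 ± 2.17 CPM, and PRRX2 15.5 ± 6.0 and 18.3 ± 7.16 CPM (SD, n = 3 each). Their groups overlapped, as did those of PRRX1 (6 and 12 counts) and PDGFRA (15 and 18 counts). FOXC1 had 1 count in each genotype, LUM none and DCN a single count in LIS1+/+. Among PDGF ligands PDGFB was called higher in LIS1+/- hESC (log2 fold change 1.93 ± 0.44, edgeR adjusted p = 0.0372). The sum of mural and smooth muscle markers was higher there too, at 6480 to 7650 CPM in LIS1+/- and 2550 to 4160 CPM in LIS1+/+ hESC, with none of 7 tested genes called, and its part in the TWIST1 values was not tested.

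The difference in genotype effect between stages was tested directly. For TWIST1 the effect at Day 12 minus that in hESC was -6.57 ± 0.86 on the log2 scale (edgeR adjusted p = 0.00155). It was called in all 18 alternative fits, with adjusted p up to 0.0482. Values ran from -7.07 to -5.45, the last without Day 12 LIS1+/+ replicate 1. TWIST1 was the only member called, where 0.377% of all tested genes were. The TWIST1 effect at Day 12 minus Day 5 was -4.43 ± 1.31 and was not called (adjusted p = 0.156). Without Day 12 LIS1+/+ replicate 1 it was -3.30 (adjusted p = 0.037) and without replicate 2 it was -4.92 (adjusted p = 0.000703). It passed also without the filter, with DESeq2 (adjusted p = 0.00336) and without the 3 libraries set apart (-5.26, adjusted p = 0.00152), and missed in the other 13 of 18 alternative fits (adjusted p up to 0.312). For PRRX2 the effect at Day 12 minus hESC was -2.51 ± 0.77 (adjusted p = 0.255), which passed without Day 12 LIS1+/+ replicate 2 (-2.90, adjusted p = 0.0261), without the filter (adjusted p = 7.48e-07) and without the 3 libraries (-2.64, adjusted p = 0.00384). It missed in the other 15 of 18 alternative fits (adjusted p up to 0.478), and was -1.79 without Day 12 LIS1+/+ replicate 1. For TWIST2 it was -3.01 ± 1.02 (adjusted p = 0.296), called in none of 18 alternative fits, and -1.96 without Day 12 LIS1+/+ replicate 1. No member was called for Day 12 minus Day 5 or Day 5 minus hESC, where 1.06% and 0.573% of tested genes were called, and 3 and 0 members had an unadjusted p under 0.05. DESeq2 called 1 and 0. At Day 5 minus hESC TWIST1 gave -2.15 ± 1.10 (adjusted p = 0.459), which passed without the filter (adjusted p = 0.0083) and with the compared libraries alone (0.0355), and at Day 12 minus Day 5 PRRX2 gave -1.60 ± 0.69 (adjusted p = 0.355), which passed without the filter (0.00272) and without the 3 libraries (-2.35, 0.00256). That PRRX2 value missed in the other 16 of 18 alternative fits and was -0.88 without Day 12 LIS1+/+ replicate 1 (adjusted p = 0.571). The TWIST1 value at Day 5 minus hESC missed in the other 16 of 18 (adjusted p up to 0.732).

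At Day 5 no member was called between genotypes by edgeR, against 1.95% of all tested genes. At an unadjusted p under 0.05 there were 2, PRRX2 and PRRX1, and DESeq2 called none. PRRX2 was measured at 50.5, 15 and 42.1 CPM in LIS1+/- organoids and 91.2, 80.7 and 73.7 CPM in LIS1+/+ organoids. All LIS1+/- libraries were below all LIS1+/+ libraries, as in 9.45% of tested genes (log2 fold change -1.19 ± 0.44, edgeR adjusted p = 0.269). Replicate 2, the lowest LIS1+/- library, is one of those set apart by GC trend. Without the filter the PRRX2 difference was called (-1.20, adjusted p = 7.13e-05), and in the other 11 of 12 alternative fits it was not (adjusted p up to 0.558).

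TWIST1 was low in both genotypes at Day 5, at 2.24, 0.731 and 2.34 CPM in LIS1+/- and 2.17, 1.80 and 3.16 CPM in LIS1+/+ organoids (log2 fold change -0.39 ± 0.96, edgeR adjusted p = 0.941). PRRX1 had no count in LIS1+/- and 7 counts in LIS1+/+ organoids, where replicate 2 was also at 0, and was not called (adjusted p = 0.429). TWIST2 had 5 counts in LIS1+/- and 18 counts in LIS1+/+ organoids, with no overlap and no call (adjusted p = 0.679). FOXC1 had 11 and 6 counts, PDGFRA 9 and 12, and PDGFRB 37 and 65, all overlapping between genotypes. LUM had 5 counts, all in LIS1+/- replicate 3, and DCN had none. Of the other mesenchymal factors FOXD1 was called higher in LIS1+/- (log2 fold change 1.55 ± 0.27, adjusted p = 0.00159), as was FOXF1, which had 2 counts in LIS1+/+.

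**Figure D3:**
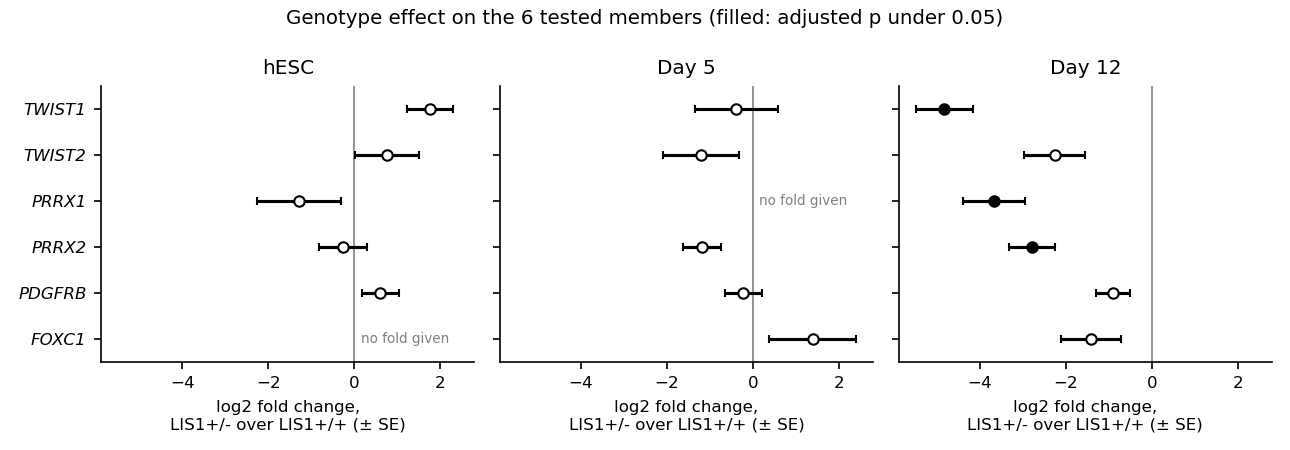
Log2 fold change of LIS1+/- over LIS1+/+ for the 6 tested members in hESC, at Day 5 and at Day 12; points are edgeR estimates, bars are SE, and filled points were called. TWIST1 lies at 1.76 in hESC, -0.39 at Day 5 and -4.82 at Day 12; no fold is drawn where a group had 3 counts or fewer.

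Across the stages of LIS1+/+ cells, TWIST1 followed a dip and a return: 22.4, 28.1 and 24.2 CPM in hESC, 2.17, 1.80 and 3.16 CPM at Day 5, and 200, 17.0 and 68.1 CPM at Day 12. The Day 5 libraries lay below all others. TWIST1 fell by 3.35 ± 0.69 on the log2 scale at Day 5 against hESC (edgeR adjusted p = 0.000838) and rose by 5.28 ± 0.65 at Day 12 against Day 5 (adjusted p = 2.5e-05), or by 4.16 without Day 12 replicate 1. Day 12 against hESC gave 1.93 ± 0.54 (adjusted p = 0.00659), but the groups overlapped, replicate 2 lying below hESC. Without Day 12 replicate 1 that call was lost (0.81, adjusted p = 0.0738), and likewise among the compared libraries alone (adjusted p = 0.134).

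In LIS1+/- cells TWIST1 fell and did not return. It stood at 96.0, 80.7 and 75.4 CPM in hESC, 2.24, 0.731 and 2.34 CPM at Day 5 and 4.95, 2.28 and 3.42 CPM at Day 12. The fall at Day 5 against hESC was -5.50 ± 0.72 (edgeR adjusted p = 9.15e-06), and Day 12 against hESC gave -4.64 ± 0.67 (adjusted p = 1.83e-05), both without overlap. Day 12 against Day 5 gave 0.86 ± 0.98 (adjusted p = 0.609).

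PRRX2 had a different course, with its highest LIS1+/+ group mean at Day 5. In LIS1+/+ cells it averaged 18.3 ± 7.16 CPM in hESC, 81.9 ± 8.78 CPM at Day 5 and 65.1 ± 47.7 CPM at Day 12 (SD, n = 3 each). It rose at Day 5 against hESC (log2 fold change 2.16 ± 0.49, edgeR adjusted p = 0.00177), and Day 12 did not differ from Day 5 beyond the spread (-0.34 ± 0.44, adjusted p = 0.611). In LIS1+/- cells the means were 15.5 ± 6.0, 35.9 ± 18.5 and 9.85 ± 3.55 CPM in the same order. There the value for Day 5 against hESC was 1.25 ± 0.51 (adjusted p = 0.0559), which passed without hESC replicate 1 (1.52, adjusted p = 0.0493) or Day 5 replicate 2 (1.61, adjusted p = 0.0112) and without the 3 libraries set apart (1.61, adjusted p = 0.000142). Over all 12 alternative fits it passed in 6, with values from 0.93 to 1.61 and adjusted p up to 0.193.

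PRRX2 fell at Day 12 against Day 5 in LIS1+/- organoids (-1.93 ± 0.52, edgeR adjusted p = 0.017). The groups did not overlap, but the call was lost without Day 5 replicate 1 (-1.62, adjusted p = 0.0706) or 3 (-1.80, adjusted p = 0.0538) and without Day 12 replicate 2 (-1.69, adjusted p = 0.0864) or 3 (-1.94, adjusted p = 0.0626).

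PRRX1 and FOXC1 were near the detection limit before Day 12. TWIST2 was low at every stage, and in LIS1+/- cells it had more counts in hESC (26) than at Day 12 (13). In LIS1+/+ cells PRRX1 had 12, 7 and 99 counts over the 3 stages, and rose by 5.06 ± 0.76 at Day 12 against Day 5 (edgeR adjusted p = 3.21e-05) with no overlap. Without Day 5 replicate 1 that was 5.66, and without Day 12 replicate 1 it was 4.22. In LIS1+/- cells it had 6, 0 and 12 counts. The Day 12 group was at least 4.09-fold higher than Day 5 (adjusted p = 0.0329) and Day 5 at least 2.69-fold lower than hESC (adjusted p = 0.0495), calls that held in 6 and 4 of 12 alternative fits. The first was lost without Day 5 replicate 1 (adjusted p = 0.0756), 2 (0.0639) or 3 (0.0874) and Day 12 replicate 1 (0.116) or 2 (0.0515), and the second without any 1 of the 6 libraries (0.0518 to 0.11) and without the 3 libraries set apart (0.0661).

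TWIST2 rose at Day 12 against Day 5 in LIS1+/+ organoids, at 15.5, 1.89 and 4.87 CPM against 1.45, 1.58 and 1.13 CPM (log2 fold change 2.36 ± 0.66, edgeR adjusted p = 0.0104). Day 12 replicate 2 lay just above the Day 5 libraries, and without Day 12 replicate 1 the call was lost (1.30, adjusted p = 0.214). In LIS1+/- cells TWIST2 fell at Day 5 against hESC, at 0.748, 1.10 and 0 CPM against 2.53, 4.06 and 4.69 CPM (-2.65 ± 0.84, adjusted p = 0.0119). That call was lost without Day 5 replicate 3 (-2.01, adjusted p = 0.0647), and without Day 5 replicate 2 the value was -3.36.

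FOXC1 rose at Day 12 in both genotypes. In LIS1+/- cells it had 1, 11 and 35 counts and in LIS1+/+ cells 1, 6 and 52 counts in hESC, at Day 5 and at Day 12. Day 12 over hESC gave a ratio of 26.6 in LIS1+/- (95% counting interval 4.48 to 1080, edgeR adjusted p = 0.00483) and of 52.2 in LIS1+/+ (8.96 to 2100, adjusted p = 0.000313), without overlap and in all 12 alternative fits of each. Against Day 5 it rose by 4.38 ± 0.84 in LIS1+/+ organoids (adjusted p = 0.000436; 5.23 without Day 5 replicate 2), and the value in LIS1+/- organoids was 1.57 ± 0.81 (adjusted p = 0.193).

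**Figure D4:**
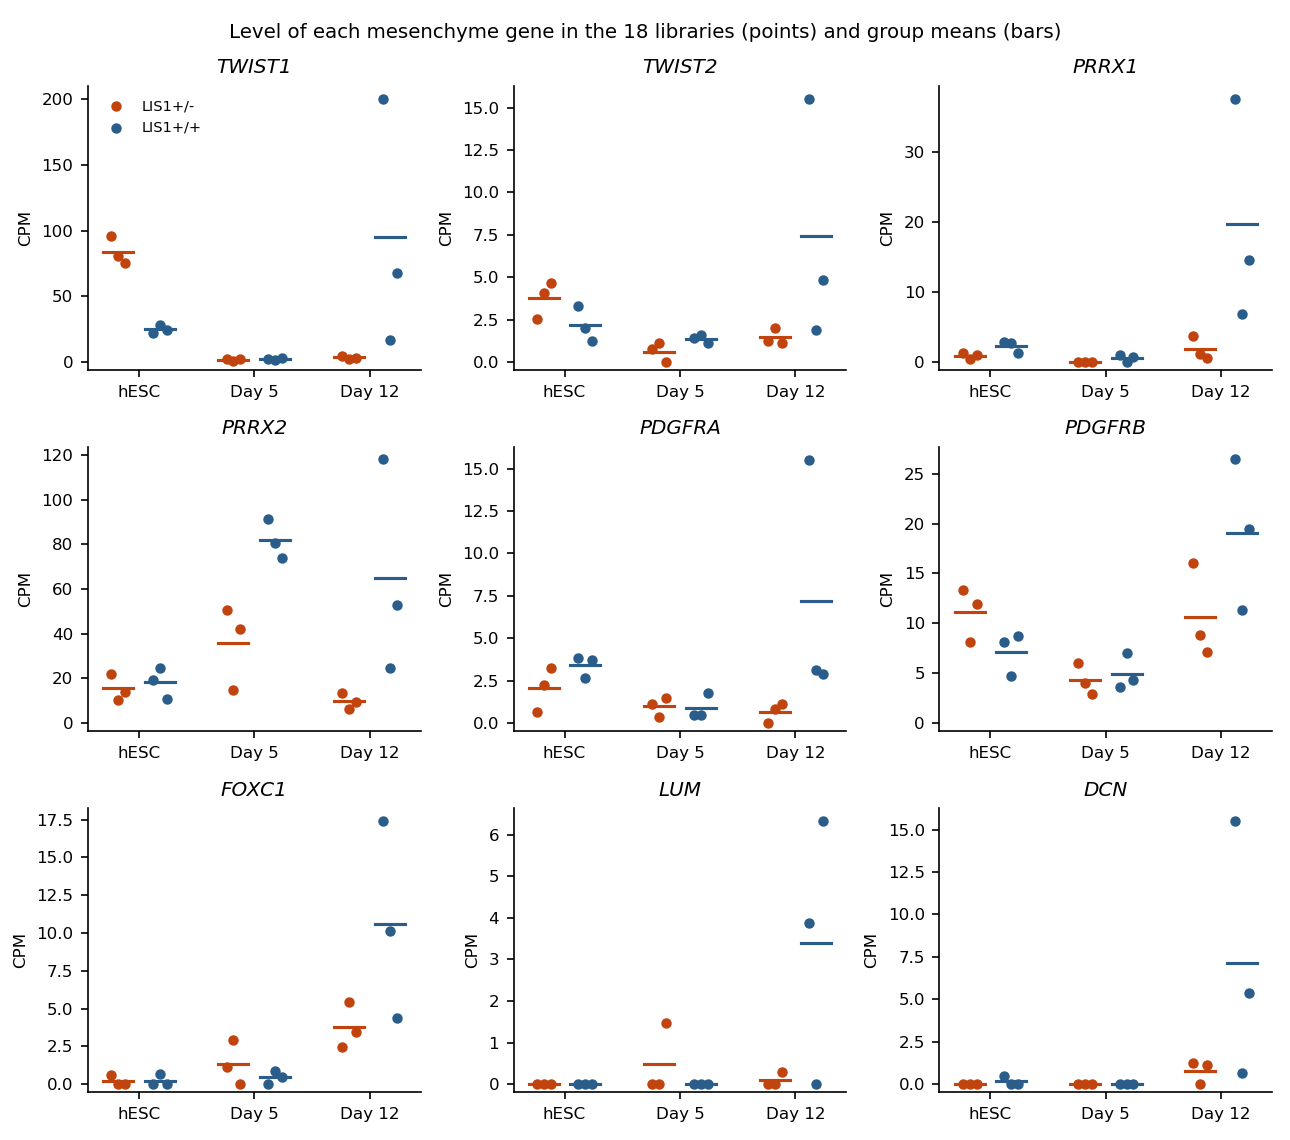
CPM of the 9 members with a count in all 18 libraries (points) with group means (bars), by stage, LIS1+/- (orange) left of LIS1+/+ (blue); the axes differ between panels. TWIST1 is high in hESC, near 2 CPM at Day 5 and high again at Day 12 in LIS1+/+ only (mean 94.9 CPM, against 3.55 CPM in LIS1+/-). In group mean TWIST1, TWIST2, PRRX1, PDGFRB, FOXC1 and DCN are higher at Day 12 than at Day 5 in both genotypes.

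The receptors differed in course. PDGFRB averaged 11.1 ± 2.67, 4.31 ± 1.55 and 10.7 ± 4.75 CPM in LIS1+/- cells and 7.15 ± 2.17, 4.96 ± 1.78 and 19.1 ± 7.59 CPM in LIS1+/+ cells, over hESC, Day 5 and Day 12 (SD, n = 3 each). It rose at Day 12 against Day 5 in LIS1+/+ organoids (log2 fold change 1.93 ± 0.40, edgeR adjusted p = 0.000841) and in LIS1+/- organoids (1.25 ± 0.43, adjusted p = 0.0443). In LIS1+/- the call was lost without Day 5 replicate 2 (1.21, adjusted p = 0.0908) or 3 (1.02, adjusted p = 0.162) and without Day 12 replicate 1 (0.90, adjusted p = 0.211) or 2 (1.36, adjusted p = 0.0695). It was lost too without the 3 libraries set apart (adjusted p = 0.0666) and with the compared libraries alone (0.0659). It fell at Day 5 against hESC in LIS1+/- cells (-1.37 ± 0.43, adjusted p = 0.012), a call lost without Day 5 replicate 3 (-1.13, adjusted p = 0.0644).

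PDGFRA averaged 2.04 ± 1.32, 0.983 ± 0.562 and 0.664 ± 0.593 CPM in LIS1+/- cells and 3.40 ± 0.634, 0.912 ± 0.772 and 7.19 ± 7.20 CPM in LIS1+/+ cells in the same order of stages. All LIS1+/+ libraries of Day 12 lay above those of Day 5, and in the fit without a filter the difference was called (2.84 ± 0.77, edgeR adjusted p = 0.00241). That fit called 3368 of its 18822 genes for this step, and no library was left out of it. Of the PDGF ligand genes, PDGFC rose at Day 12 against Day 5 in LIS1+/+ organoids (2.36 ± 0.41, adjusted p = 0.000135), and none of the 3 tested was called for that step in LIS1+/-.

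The proteoglycan genes were almost silent before Day 12. LUM had no count in hESC and DCN a single one, and in LIS1+/+ organoids both had 0 counts at Day 5 against 19 and 36 at Day 12. Day 12 was thus at least 15.9-fold higher for LUM and at least 30.1-fold higher for DCN, which in the fit without a filter had adjusted p of 0.00166 and 1.09e-05 by edgeR. For this step that fit called 3368 of its 18822 genes, and no library was left out of it. LUM overlapped, since Day 12 replicate 2 was at 0, and DCN did not. In LIS1+/- organoids LUM had 1 count at Day 12 and 5 at Day 5, and DCN 6 and 0, with no call (adjusted p = 0.573 and 0.135).

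Counted over members, Day 12 against Day 5 called 5 of 6 tested members higher and none lower in LIS1+/+, where 12.7% of tested genes were called higher. In LIS1+/- it called 2 higher and 1 lower, where 8.90% and 7.64% of tested genes were called in those directions. Day 5 against hESC called 4 lower in LIS1+/- (21.4% of tested genes) and 1 higher and 1 lower in LIS1+/+ (22.9% and 21.7%). Day 12 against hESC called 1 higher and 1 lower in LIS1+/- (26.7% and 25.4%) and all 6 tested members higher in LIS1+/+ (28.1%), of which TWIST2 was the nearest to the threshold (1.67 ± 0.71, edgeR adjusted p = 0.0497). That TWIST2 call was lost without any 1 of the 3 hESC libraries (2.15, 1.60 and 1.40) or Day 12 replicate 1 (0.61), without the filter (adjusted p = 0.0609) and with the compared libraries alone (0.0722). Without that Day 12 library PRRX1 and PRRX2 were at 2.23 and 1.11 for this step, against 3.07 ± 0.71 and 1.83 ± 0.51 with it, and both stayed called. Out of all 10 members, the LIS1+/+ counts called higher at Day 12 are 5 against Day 5 and 6 against hESC. PRRX1 and FOXC1, with 99 of 136 and 52 of 106 counts in Day 12 LIS1+/+ organoids, passed the filter through that group. TWIST2, with 37 of 111 counts there, passed in part through it. These LIS1+/+ shares of tested members therefore partly follow from the filter.

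These stage changes ran beside others. At Day 12 against Day 5 in LIS1+/+ organoids, 7 of 13 tested mesenchymal factors were called higher, among them ZEB1 (log2 fold change 1.93 ± 0.27, edgeR adjusted p = 9.97e-06) and ALX4 (4.11 ± 0.91, adjusted p = 0.00199), 9 of 11 fibroblast genes higher and 1 lower, 5 of 8 crest genes higher and 3 of 4 endoderm genes higher. In LIS1+/- organoids the same step called 2 mesenchymal factors higher and 1 lower, 8 fibroblast genes higher and 1 lower, 2 crest genes higher and 1 lower, and no endoderm gene. Of the fibroblast genes, COL1A2 rose in LIS1+/- (2.13 ± 0.38, adjusted p = 0.000769) and COL1A1 in LIS1+/+ (3.38 ± 0.39, adjusted p = 2.12e-06).

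Genes with the most similar course were sought among 10407 tested genes with a mean of at least 5 CPM, by Pearson correlation of log2 CPM over the 18 libraries, which share stage, pool and depth. For TWIST1 they were PCOLCE (r = 0.94), which encodes an enhancer of collagen processing, COL3A1 (r = 0.93) and G0S2 (r = 0.92), a lipolysis inhibitor gene. COL3A1 averaged 50.6 ± 9.45, 1.43 ± 0.924 and 3.85 ± 1.49 CPM in LIS1+/- cells and 25 ± 6.79, 0.827 ± 1.24 and 94.1 ± 97.4 CPM in LIS1+/+ cells in hESC, at Day 5 and at Day 12. For PRRX2 they were MXRA8 (r = 0.84), ARID3A (r = 0.80) and FIGNL2 (r = 0.80). For PDGFRB they were VEGFA (r = 0.90), a hypoxia-induced growth factor gene, and the stress-response genes DDIT3 (r = 0.87) and BHLHE40 (r = 0.86). VEGFA averaged 84.7 ± 3.58, 36.8 ± 9.28 and 82.1 ± 17.0 CPM in LIS1+/- cells and 57.5 ± 9.67, 32.0 ± 2.93 and 132 ± 34.3 CPM in LIS1+/+ cells over the stages.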

How the data were processed

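Each library has 1 deposited file of raw counts, whole numbers for 26485 gene symbols. Its 5 closing rows name no gene and were left out. The submitters' processing notes name cutadapt, STAR and DESeq2, without versions, and the builds GRCh37 and hg38. Collapsing of molecular identifiers and use of strand are not given in the sources used here.

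Genes passing filterByExpr on the 6 groups (12215) were scaled with TMM. edgeR 4.0.16 (R 4.3.3, limma 3.58.1) tested them by its robust quasi-likelihood fit in 1 fit of 18 libraries with 12 residual degrees of freedom. Genes were called at an adjusted p (Benjamini-Hochberg, all tested genes) under 0.05, with two-sided tests. The 12 comparisons set genotypes against each other per stage, stages per genotype, and genotype effects of 2 stages. Errors are library SDs or SEs of log2 fold changes. Where a group had 0 counts, 3 counts in that group served as floor for the fold. Groups of 1 to 3 counts are given as a pooled ratio with an exact binomial 95% counting interval. Intervals and floors cover counting error only.

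Alternatives were DESeq2 size factors, no filter beyond 1 count, DESeq2 1.42.0, only the libraries compared, a replicate block, each library left out, and the 3 libraries set apart left out. Members and the 12 gene lists, written from textbook knowledge, were chosen with earlier results of these data known. Up to 4 genes of a list were named, by smallest adjusted p, beside counts of the whole list. The pipeline was tested on simulated data. Libraries of a group differed by more than sampling noise. Matplotlib 3.10.9 (Python 3.11.15, NumPy 2.4.6, pandas 2.3.3) drew the figures.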

Additional observations from a re-analysis of the deposited data

Results flagged for a closer look

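The genotype effect on TWIST1 differed between stages. On the log2 scale the effect at Day 12 minus the effect in hESC was -6.57 ± 0.86 (edgeR quasi-likelihood adjusted p = 0.00155), because TWIST1 was higher in LIS1+/- than in LIS1+/+ hESC (84.0 ± 10.7 and 24.9 ± 2.90 CPM, SD, n = 3 each) and lower in LIS1+/- than in LIS1+/+ organoids at Day 12 (3.55 ± 1.34 and 94.9 ± 94.2 CPM). The direction held in 3 of 3 libraries of each group at both stages, with no overlap between genotypes. In those directions 10.6% of tested genes separated so in hESC and 8.43% at Day 12. The hESC difference by itself was not called in the fit of 18 libraries (edgeR adjusted p = 0.212). Whether the LIS1+/- hESC libraries are repeats of 1 sample is not stated.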

How the results depend on the processing

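TWIST1 passed at Day 12 and in its Day 12 minus hESC effect whichever single library was left out. Apart from single libraries left out, the numbers of members called that moved by over 1.5 times were these. With no filter, 1 was called in hESC, 1 at Day 5 and 8 for Day 12 against Day 5 in LIS1+/+. That fit held 18822 genes, PDGFRA, LUM and DCN among them, and called 206, 412 and 3368 genes in these comparisons. The genotype effect then differed for 1 member between Day 5 and hESC, for 3 between Day 12 and Day 5 and for 2 between Day 12 and hESC. Over all genes of that fit it differed for 281, 363 and 172. For the fits that follow no share over all genes is given. With only the compared libraries, 1 was called in hESC, 0 at Day 12, 1 for Day 12 against Day 5 in LIS1+/- and 1 for the effect at Day 5 against hESC. DESeq2 called 1 for the effect at Day 12 against Day 5. Without the 3 libraries set apart, 1 was called in hESC and 2 for each effect that involves Day 12. Leaving out single libraries gave 1 to 4 members at Day 12, 2 to 4 for Day 5 against hESC in LIS1+/-, 0 to 2 and 4 to 5 for Day 12 against Day 5 in LIS1+/- and LIS1+/+, 4 to 6 for Day 12 against hESC in LIS1+/+, and 0 to 1 and 1 to 2 for the effect at Day 12 against Day 5 and against hESC.

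Uncalled log2 values crossed 0 when single libraries were left out. PRRX2 at Day 12 against Day 5 in LIS1+/+ ran from -1.06 to 0.05, and was 0.04 without the 3 libraries. The TWIST2 effect at Day 12 against Day 5 ran from -1.70 to 0.00, PRRX1 at Day 12 against hESC in LIS1+/- from -0.09 to 1.18, PDGFRB between genotypes at Day 5 from -0.53 to 0.09, and PDGFRB at Day 12 against hESC in LIS1+/- from -0.46 to 0.12. The cause was not tested.

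Same-numbered libraries deviated together little (r from -0.09 to 0.08, 0 of 9 over 0.1). At Day 12 each LIS1+/- library was nonetheless closest to the LIS1+/+ library of its own number (r = 0.07, 0.08 and 0.05). At the other stages some were and some were not. Such values cannot tell whether same-numbered libraries shared a culture or batch. With the replicate block, PRRX2 at Day 5 against hESC in LIS1+/- was called (1.19, adjusted p = 0.0161 by edgeR) and TWIST2 at Day 12 against hESC in LIS1+/+ was not (1.65, adjusted p = 0.0581), while 3 members were called at Day 12 as without it. It also ended the Day 12 calls of SNAI2 (-2.07, adjusted p = 0.0508) and LIN28A (-0.92, adjusted p = 0.073). Over all 18 libraries depth left 0 counts for FOXC2, 25 for LUM, 43 for DCN, 96 for PDGFRA, 106 for FOXC1, 111 for TWIST2 and 136 for PRRX1.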
